A study of Mus musculus with 8 samples.

Results

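The mitochondrial ribosomal proteins were examined in ribosome profiles of mouse liver. The members are the genes whose symbol begins with Mrpl (large subunit) or Mrps (small subunit) followed by a digit. They numbered 54 of the 7500 genes in the deposited table, 35 for the large and 19 for the small subunit. The rule used the symbol alone and no measured value. RefSeq lists 78 protein-coding genes with such symbols, and the 24 without a line in the table (14 large, 10 small) were not analysed here. Why they lack a line was not tested, and a missing line is not read here as a low level. The hepatocyte marker Cps1 has no line either. Sums of CPM, percents of footprints and the extremes of each list therefore cover only genes with a line.

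Livers came from male FVB/N mice, an inbred strain, given from weaning a diet without added selenium (0 Se) or the same diet with 0.1 ppm selenium (0.1 Se) for 6 weeks. Each diet was represented by 2 mice and 4 libraries, 2 per mouse. The study asked how dietary selenium alters translation in the liver. The table gives, besides the authors' own comparison of the diets, which was not used here, 1 average abundance per gene over all 8 libraries, so the values below describe liver on both diets together and no difference between diets is given. No value of a single mouse was used, no SD or n can accompany a value, and the depth of the libraries is unknown.

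The mitochondrial ribosome, or mitoribosome, translates the few messages encoded by mitochondrial DNA, all of which specify membrane subunits of the respiratory chain and ATP synthase. Its RNAs are made in the mitochondrion, but every one of its proteins is encoded in the nucleus, translated by cytosolic ribosomes, imported, usually with the help of an N-terminal targeting sequence, and assembled with the RNA. Roughly speaking, its proteins are either descendants of bacterial ribosomal proteins or additions found in mitochondria only. A footprint on an Mrpl or Mrps message is therefore the work of a cytosolic ribosome making a part for a mitochondrial one. In liver, a tissue rich in mitochondria, these messages are translated alongside those of very abundant secreted proteins.

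The abundance of a gene is given in CPM, its footprints scaled to 1000000 footprints in a library. Because a longer coding sequence holds more ribosomes, levels were compared between genes as footprint density, CPM per kilobase of the counted coding length, on the log2 scale. Density rests on the amount of mRNA and on how many ribosomes each mRNA carries, and fewer cells of a type cannot be told apart from less RNA per cell. The hepatocyte markers Alb, Apoa1 and Ttr were the most abundant of the markers checked. The log2 CPM was 16.48 for Alb, 14.20 for Apoa1, 13.40 for Ttr and 7.93 for Serpina1a, while Cps1 had no line. Markers of other liver cells were also present, at a log2 CPM of 2.88 to 8.09 for 4 Kupffer cell genes, 3.73 to 7.27 for 3 endothelial genes, 1.78 to 7.71 for 3 stellate cell genes and 0.72 to 0.99 for 2 cholangiocyte genes. The part of each cell type in the members' footprints was not tested.

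Many members are short, which bears on how precisely they can be measured by footprints. The coding sequences of the 3 members of at most 300 bases are given in full, to show how little sequence is counted. The study left the first 15 and the last 3 codons out of its counts, and the bases between them are in capitals. The listed lengths are 138 bases for Mrpl33, 219 for Mrpl34 and 204 for Mrps21.
Mrpl33: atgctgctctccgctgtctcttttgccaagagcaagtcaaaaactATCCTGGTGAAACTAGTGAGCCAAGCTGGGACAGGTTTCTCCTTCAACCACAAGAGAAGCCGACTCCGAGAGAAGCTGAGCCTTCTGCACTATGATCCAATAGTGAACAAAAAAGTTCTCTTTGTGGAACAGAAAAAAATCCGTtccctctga
Mrpl34: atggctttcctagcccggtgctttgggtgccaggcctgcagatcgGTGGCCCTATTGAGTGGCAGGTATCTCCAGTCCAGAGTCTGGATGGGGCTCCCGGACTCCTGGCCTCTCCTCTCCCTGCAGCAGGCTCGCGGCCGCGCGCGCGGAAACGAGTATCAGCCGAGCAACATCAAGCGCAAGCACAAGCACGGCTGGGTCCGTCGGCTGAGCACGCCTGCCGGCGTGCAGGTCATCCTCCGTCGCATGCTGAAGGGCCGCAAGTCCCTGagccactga
Mrps21: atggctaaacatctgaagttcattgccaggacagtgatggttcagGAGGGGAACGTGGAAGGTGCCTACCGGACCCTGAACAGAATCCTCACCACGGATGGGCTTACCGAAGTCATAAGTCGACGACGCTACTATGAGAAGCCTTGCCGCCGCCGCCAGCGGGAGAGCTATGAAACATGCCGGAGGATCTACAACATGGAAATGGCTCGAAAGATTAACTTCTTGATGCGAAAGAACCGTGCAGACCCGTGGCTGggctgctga
All are given 5′ to 3′ on the coding strand, from the GENCODE transcripts of the mm9 build. Mrpl33 and Mrpl34, relatives of the bacterial proteins of the same number, lie in the large subunit. Mrps21 lies in the small subunit. Mrps21 had the highest density of all 54 members, at 43.1 CPM and 211 CPM per kb, a log2 density of 7.72. Mrpl33, the shortest member, had only 10.4 CPM but a log2 density of 6.23, and Mrpl34 had 15.7 CPM and a log2 density of 6.17. Both thus stood above the members' median once length was taken into account.

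The members as a set were translated at a moderate and fairly even level. Their median density was 51.0 CPM per kb, a log2 density of 5.67, with quartiles of 5.2 and 6.15. The highest member exceeded the lowest 20.3-fold. Of the 54 members, 40 (74.1%) lay within 2-fold of that median, whereas 32.5% of all genes lay within 2-fold of the median of all genes. The SD across genes was 0.86 for the members and 2.47 for all genes. In CPM the members ranged from a log2 value of 2.15 to 6.38, with a median of 4.68 (25.6 CPM). Together they took 1471 CPM, which is 0.147% of all footprints, of which 961 CPM fell on the large and 510 CPM on the small subunit.

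**Figure D1:**
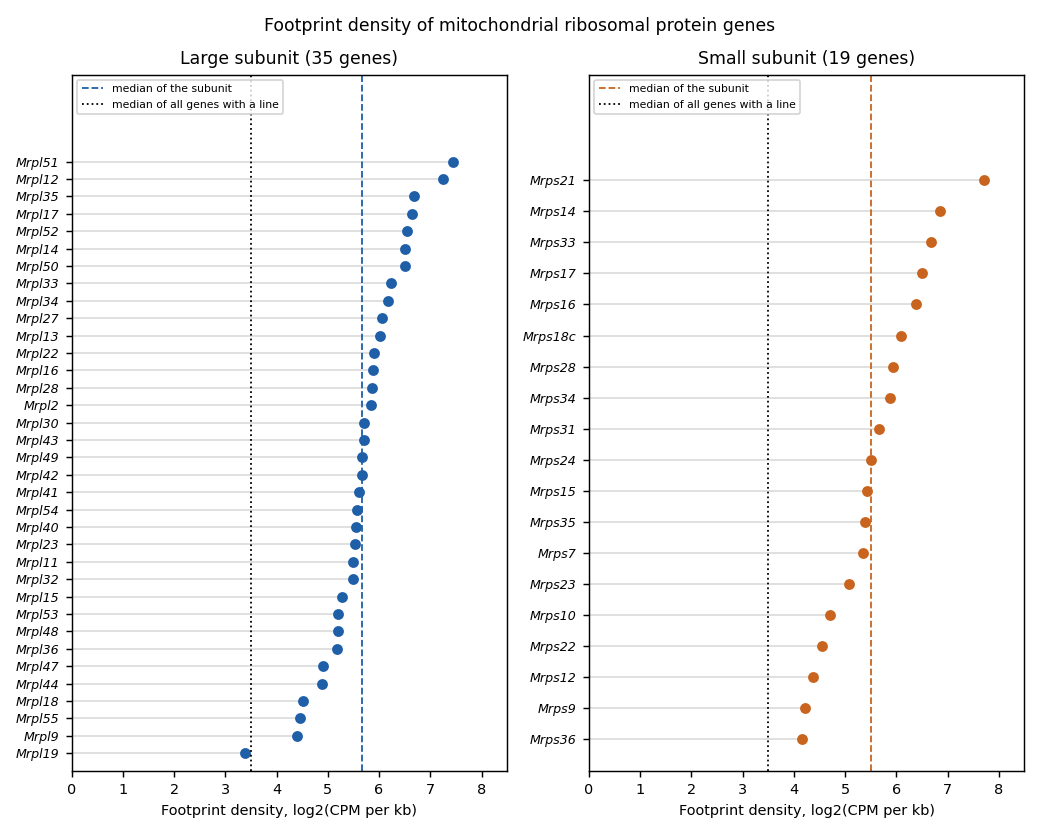
Footprint density (log2 CPM per kb, horizontal axis) of each mitochondrial ribosomal protein gene, large subunit on the left and small subunit on the right, ordered by value; each point is the authors' average over all libraries, the dashed line is the median of the subunit (5.67 and 5.51) and the dotted line that of all genes (3.50). All members but Mrpl19 stand to the right of the dotted line.

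Members were denser than most genes. The median of all 7500 genes was a log2 density of 3.50, and 53 of the 54 members lay above it. The exception was Mrpl19, at 3.38. The members' median fell at the 79.7th percentile of all genes by density and at the 64.0th percentile by CPM. The gap was smaller among genes of the members' length range. Among the 2949 genes of that range, 138 to 1113 bases, the median log2 density was 4.58. The members' median was thus 4.52-fold that of all genes and 2.14-fold that of genes of the range. By CPM the latter was 1.64-fold. These genes were not matched in length, since their median was 708 bases and that of the members 458 bases.

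In the large subunit, the highest densities belonged to Mrpl51, Mrpl12, Mrpl35, Mrpl17 and Mrpl52, at log2 densities of 7.44, 7.25, 6.69, 6.64 and 6.55. Mrpl12, Mrpl35 and Mrpl17 have bacterial relatives, whereas Mrpl51 and Mrpl52 are found in mitochondria only. The lowest were Mrpl44 at 4.88, Mrpl18 at 4.51, Mrpl55 at 4.46, Mrpl9 at 4.39 and Mrpl19 at 3.38. Mrpl18 is part of the central protuberance, Mrpl44 has a fold like that of ribonuclease III, and Mrpl9 and Mrpl19 descend from bacterial proteins of the same number. Mrpl19 (chr6:81907845-81915952, minus strand, mm9) was counted over 819 bases with 8.52 CPM, while Mrpl51 (chr6:125141819-125145601, plus strand), on the same chromosome, gave 56.6 CPM over 327 bases. Their densities differed 16.7-fold.

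Mrpl12 is the stalk protein of the large subunit. It is the member known to be present in several copies on each mitoribosome, where it recruits the translation factors. Its gene (chr11:120345927-120350379, plus strand, mm9, 5 exons) had 83.1 CPM, the most of any member, and a density of 152 CPM per kb. This was 2.98-fold the median density of the other 34 large subunit members, and 3.69-fold their median CPM. By density 1 of those 34, Mrpl51, stood higher, and by CPM none did. Mrpl11, which anchors the stalk to the ribosome, was close to the subunit median, with a log2 density of 5.49. Mrpl10, the other stalk partner, and Mrpl1 had no line.

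The members around the catalytic centre and the exit tunnel lay near the middle of the subunit. Mrpl2, Mrpl16 and Mrpl27, which lie near the site of peptide bond formation, had log2 densities of 5.85, 5.88 and 6.06, a narrow band. Mrpl3 and Mrpl4 had no line. At the tunnel through which the new chain leaves, Mrpl22 had 5.90, Mrpl23 had 5.52 and Mrpl47 had 4.91, so Mrpl47 stood apart on the low side. Mrpl24 and Mrpl45 had no line.

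In the small subunit, Mrps21 led with a log2 density of 7.72, followed by Mrps14 at 6.85, Mrps33 at 6.68, Mrps17 at 6.50 and Mrps16 at 6.38. Of these, Mrps33 is found in mitochondria only and the others have bacterial relatives. The lowest were Mrps10 at 4.70, Mrps22 at 4.55, Mrps12 at 4.38, Mrps9 at 4.21 and Mrps36 at 4.15. Mrps12 lies at the decoding centre, where codon and anticodon are matched. The remaining members of the decoding and mRNA path with a line were Mrps7, at 5.34, and Mrps24, at 5.51, both close to the subunit median. Mrps2, Mrps5 and Mrps11 had no line. Among the Mrps18 paralogues, which occupy different places in the mitoribosome, Mrps18c had 6.09 and the other two, Mrps18a and Mrps18b, had no line, so the paralogues could not be compared.

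Mrps36 had the fewest footprints of all members, 4.43 CPM. Its protein was later assigned to the 2-oxoglutarate dehydrogenase complex of the citric acid cycle, not to the ribosome. Of the 30-base windows of its coding sequence, 79.3% also occur in the annotated transcript Mrps36-ps1. The study counted reads with a unique place among RefSeq mRNAs, and whether such a transcript was in that set is not known, so its value is uncertain. Windows were shared by 3 further members, Mrpl32 (21.9%, with Gm6578), Mrpl41 (50.7%, with Gm6434) and Mrpl53 (100%, with Ccdc142). Mrpl53 nonetheless had 10.9 CPM, so reads were counted on it in spite of the shared windows, and its reads cannot be told apart by sequence from those of Ccdc142. The other 50 members shared no window with another protein-coding transcript, and other transcripts were not searched. Only exact matches were searched, whereas the study allowed 2 mismatches, so loss of reads to nearly identical sequences was not tested.

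The subunits did not stand apart by density. The median log2 density was 5.67 for the large and 5.51 for the small subunit, a difference of 0.17, or 1.12-fold. Of the small subunit members, 18 of 19 lay within the range of the large subunit, and 34 of 35 large subunit members lay within the range of the small one. By CPM without regard to length the order turned, the median of the large less that of the small subunit being -0.26 on the log2 scale. The median counted length was 471 bases for the large and 444 bases for the small subunit. Genes are not replicates, so no test was made of these differences.

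By descent the members differed as little. The 33 members with bacterial relatives had a median log2 density of 5.85 and the 18 found in mitochondria only had 5.64. The difference of 0.22 fell to -0.05 among members of at least 400 bases, so it does not give an order. The SD was 0.93 in the first class and 0.70 in the second. The other 3 members (Mrpl55, Mrps28, Mrps36) were not classed.

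**Figure D2:**
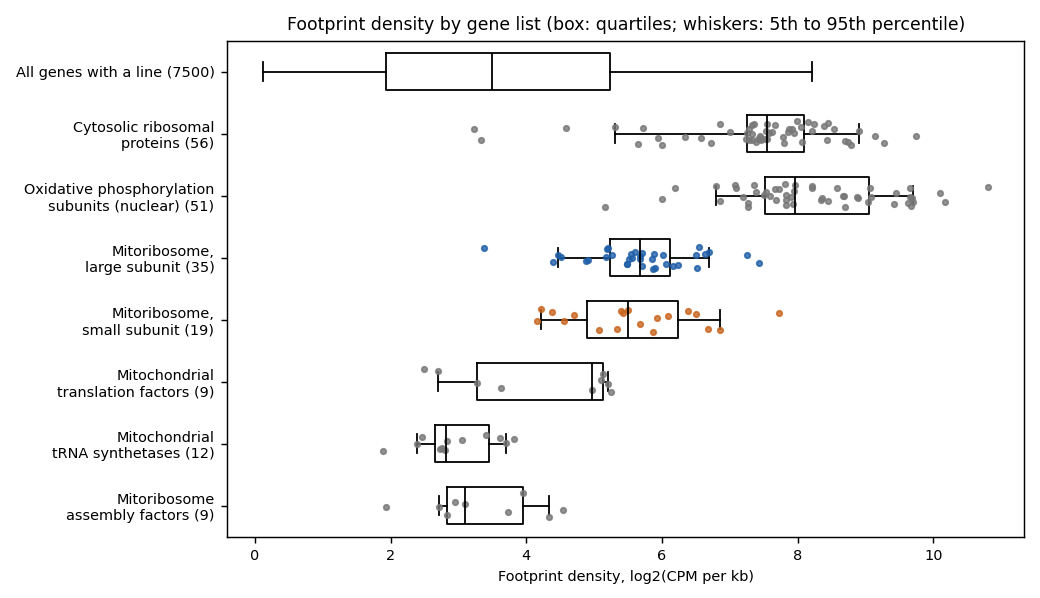
Footprint density (log2 CPM per kb, horizontal axis) of all genes and of 7 gene lists, with the number of genes with a line in brackets; each point is a gene, boxes give the quartiles and median and whiskers the 5th to 95th percentile. The medians of both subunits lie between those of all genes (3.50) and of the cytosolic ribosomal proteins (7.54), and above that of the mitochondrial tRNA synthetases (2.82).

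Compared with the ribosome that makes them, the members were less dense. The 56 cytosolic ribosomal proteins (Rpl and Rps symbols) had a median log2 density of 7.54, which is 3.66-fold that of the members, and took 5539 CPM, or 0.554% of all footprints. Of the members only Mrps21 exceeded their median, and 23 of the 56 exceeded Mrps21. Both sets were fairly even, with 69.6% of the cytosolic and 74.1% of the mitochondrial ribosomal proteins within 2-fold of their own median. The least abundant of the cytosolic set was Rpl37, with a log2 CPM of 1.13. Only reads with a unique place were counted, and shared windows were not searched for this set. Its low values, and the gap to the members, are therefore uncertain. Cytosolic genes without a line were not counted.

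The nuclear-encoded subunits of oxidative phosphorylation, the respiratory complexes and ATP synthase that work beside the products of the mitoribosome, were also denser than the members. The 51 genes with a line had a median log2 density of 7.96, which is 4.90-fold that of the members, and took 0.857% of all footprints. No member exceeded this median, and 1 of the 51, Cox7c with a log2 density of 5.16, lay below the members' median. Shared windows were not searched for this set either, so its order against the cytosolic ribosomal proteins is uncertain. Subunit genes without a line were not counted.

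The other proteins of mitochondrial translation stood lower. The mitoribosome also needs initiation, elongation and release factors, aminoacyl-tRNA synthetases that charge its tRNAs, and factors that assemble it. The 12 mitochondrial tRNA synthetases with a line, of 17 in the list, had a median log2 density of 2.82, with Nars2 the highest at 3.81 and Vars2 the lowest at 1.88. The members' median was 7.24-fold theirs by density and 1.91-fold by CPM, the median counted length being 1504 bases for the synthetases and 458 bases for the members. The 9 assembly factors with a line, of 23, had a median of 3.09, from 1.93 for Fastkd2 to 4.55 for Rbfa, and the members' median was 5.99-fold theirs by density and 1.85-fold by CPM. The 9 translation factors with a line, of 14, had a median of 4.96. Within them the initiation factor Mtif3 was highest at 5.24, the elongation factor Gfm1 had 5.2, and the release factor Mtrf1 was lowest at 2.49. Measured in CPM, where the long coding sequences of the factors count in full, the members and the translation factors were alike, at medians of 4.68 and 4.72 on the log2 scale.

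Mitoribosome proteins that carry other symbols lay among the members. Of 7 such genes, 5 had a line, and their median log2 density was 5.96. Aurkaip1 had 6.75, Chchd1 6.34, Gadd45gip1 5.96, Dap3 5.18 and Ptcd3 4.28. All 5 fell within the members' range. Gadd45gip1 belongs to the large subunit and the others to the small one.

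Length was related to both measures in opposite directions. Across the 54 members, log2 length and log2 CPM had a Pearson correlation of 0.35 (Spearman 0.32), and log2 length and log2 density one of -0.40 (Spearman -0.38). Since length is the divisor of density, the second is partly built in. Across all 7500 genes the values were 0.01 and -0.44 (Pearson). These are correlations across genes within 1 averaged profile, in which genes share libraries and are not independent. The 27 shorter members had a median log2 CPM of 4.45 and the 27 longer ones 4.93. Mrps31, one of the longest at 1095 bases, had 55.9 CPM and a log2 density of 5.67, equal to the members' median.

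**Figure D3:**
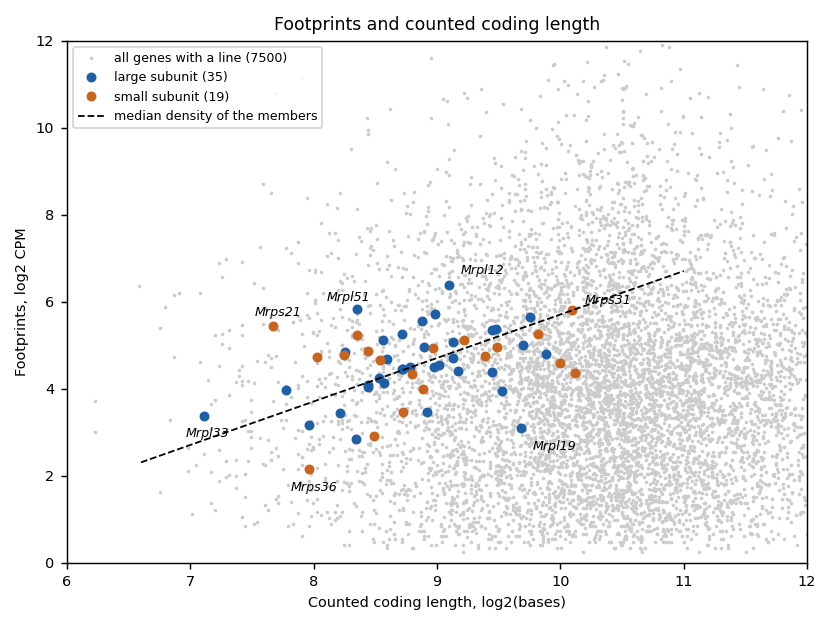
Footprints (log2 CPM, vertical axis) against counted coding length (log2 bases, horizontal axis) for all genes within the axis limits (grey) and for the members of the large (blue) and small (orange) subunit; the dashed line marks the members' median density of 51.0 CPM per kb. Of the 54 members, 40 lie within 2-fold of the line, Mrpl51, Mrps21 and Mrpl12 lie above it and Mrpl19 and Mrps36 below. Among the members, log2 length has a Pearson correlation of 0.35 with log2 CPM and of -0.40 with log2 density.

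The coding sequences of the members shared an excess of basic codons, which the symbol rule did not use. Ribosomal proteins bind RNA, whose backbone is negatively charged, and arginine and lysine carry positive charge. Codons for arginine and lysine outnumbered those for aspartate and glutamate in all 54 members (100%), compared with 40.1% of the 7093 genes whose annotated coding sequence matched the listed length. The whole coding sequence was counted, with any N-terminal targeting sequence. The members were also shorter, at a median of 172 codons against 468 for all genes. The median share of arginine and lysine codons was 16.5% in the members and 11.4% in all genes. The cytosolic ribosomal proteins were more basic still at 21.5%, although 91.1% of them, not all, had the excess. Of the oxidative phosphorylation subunits, 82.4% had it too, with a median excess of 3.17 per 100 codons. The cause of the excess was not tested. The median excess was 13.1 per 100 codons for the cytosolic ribosomal proteins and 6.87 for the members. The excess was largest in Mrpl36, at 19.6 per 100 codons, and smallest in Mrps10, Mrps22 and Mrps31, at 0.625, 0.836 and 1.04. The subunits were alike, with medians of 6.79 for the large and 7.02 for the small.

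**Figure D4:**
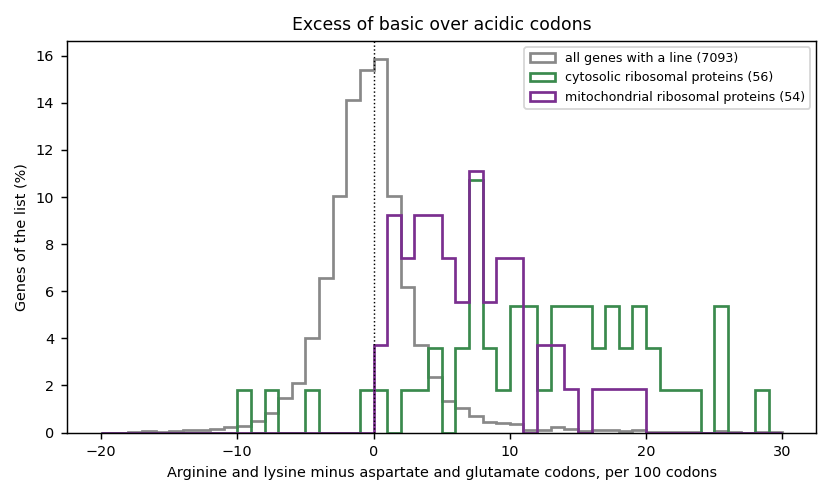
Distribution of the excess of arginine and lysine codons over aspartate and glutamate codons (per 100 codons, horizontal axis) in all genes with a matched sequence (grey), cytosolic ribosomal proteins (green) and mitochondrial ribosomal proteins (purple); the vertical axis is the percent of each list per bin of 1. No member lies left of 0, the median being 6.87 for the members and -0.460 for all genes.

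At the start of the coding sequence the members differed from the cytosolic ribosomal proteins. Mitochondrial targeting sequences are typically rich in arginine and poor in acidic residues. Over the first 40 codons, 44 of 54 members (81.5%) had more arginine than lysine codons, against 50.8% of all genes and 30.4% of the cytosolic ribosomal proteins. The oxidative phosphorylation subunits, which are also imported, were close to the members at 76.5%. The median number of arginine codons was 4 in these subunits, the members and the cytosolic set alike, and 2 in all genes. The contrast with the cytosolic set thus lay in lysine, with a median of 4 codons in that set and fewer in the members. It was not confined to the start. Over the whole coding sequence the median share of lysine codons was 7.67% in the members and 12.1% in the cytosolic set. For arginine codons it was 9.03% and 8.61%. No acidic codon at all was present in the first 40 in 14 members (25.9%), compared with 5.70% of all genes, 7.14% of the cytosolic set and 13.7% of the oxidative phosphorylation subunits. Mrpl12 was among these 14, with 7 arginine codons and no lysine codon in its first 40. Not every member fitted this description. Mrpl33, printed above, had 3 arginine and 6 lysine codons there, and Mrps10 had 5 acidic codons.

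The genes were scattered over 17 chromosomes. Of the 54 members, 11 (20.4%) had a protein-coding neighbour in head-to-head orientation, on the opposite strand with a start within 1000 bases, and so did 800 of 7216 genes placed (11.1%). For 10 of the 11 the neighbour had a line. The member was denser than its neighbour in 8 pairs and less dense in 2, with a median difference of 2.89 on the log2 scale. The members' median density stood at the 79.7th percentile of all genes, so most genes lie below it whether paired or not. The share for genes not paired was not computed. By CPM, without length, the member was higher in 6 pairs and lower in 4, with a median difference of 2.1, since Mrpl41 (4.08 beside 6.67 for Pnpla7) and Mrps12 (2.91 beside 3.38 for Sars2) turned. The pairs in which the member was lower by both measures were Mrpl49, at a log2 density of 5.67 beside Fau at 8.01, and Mrpl32, at 5.49 beside Psma2 at 6.69. Fau encodes a protein of the cytosolic small subunit and Psma2 a subunit of the proteasome. In the pair with the widest gap in density, Mrpl51 had 7.44 and the condensin gene Ncapd2, whose start lies 570 bases away, had -0.26. The values of a pair were thus up to 7.70 apart on the log2 scale.

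**Figure D5:**
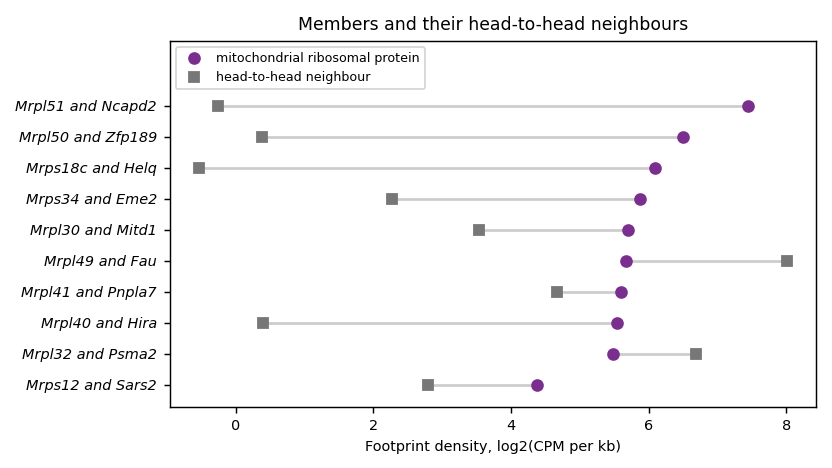
Footprint density (log2 CPM per kb, horizontal axis) of members (purple circles) and of their head-to-head neighbours (grey squares), 1 pair per row joined by a line. The member is higher in 8 of the 10 pairs by density, and in 6 by CPM, and the densities of a pair differ by up to 7.70. The members' median density stands at the 79.7th percentile of all genes.

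One of these pairs joins 2 parts of mitochondrial translation, the decoding-centre protein Mrps12 and Sars2, the mitochondrial seryl-tRNA synthetase. Mrps12, with a log2 density of 4.38 (7.52 CPM), was low among the members but above the median of all genes, and Sars2, with 2.80 (10.4 CPM), lay at the median of the tRNA synthetases. The stretch between their starts (chr7:29526840-29527009, plus strand, mm9) is 170 bases long. It is shown because it holds all the sequence between the starts of both genes. Capitals mark the matches to CCAAT on the minus strand, which read ATTGG on the plus strand printed here.
Mrps12 to Sars2: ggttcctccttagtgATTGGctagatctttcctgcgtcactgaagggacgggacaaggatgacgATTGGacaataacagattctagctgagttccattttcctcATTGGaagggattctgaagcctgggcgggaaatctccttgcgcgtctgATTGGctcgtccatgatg
It holds 4 such matches, and all have the same orientation. CCAAT is the core of the site bound by the factor NF-Y, and whether it is bound here was not measured.

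Promoters, taken from RefSeq (GRCm38.p6) as 250 bases before to 50 bases after the start, were found for 47 of the 54 members and 5656 genes with a line. They were searched on both strands for 5 motifs known from promoters of mitochondrial, ribosomal and housekeeping genes. The ETS core CCGGAAG was present in 18 of 47 member promoters (38.3%), against 20.5% of genes with a line. AAGATGGC, a form of the YY1 site, was present in 8 (17%), against 5.2%. The site of NRF1, searched as GCGCA and GCGC parted by any 1 base, was present in 9 (19.1%), against 11.6%. The cyclic AMP response element TGACGTCA was present in 2 (4.26%), against 3.61%, and CCAAT in 19 (40.4%), against 43.6%. Members with the ETS core had a median log2 density of 6.08 and those without it 5.54. For YY1 the values were 5.50 and 5.70. A match describes letters in a window and does not show binding.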

How the data were processed

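Ribosome footprints were sequenced from liver of mice on the 0 Se and 0.1 Se diets (2 mice and 4 libraries each; groups from the sample titles). According to the study's methods and the submitters' processing notes, reads that aligned uniquely with up to 2 mismatches to the longest RefSeq isoform (Bowtie, mm9) were counted without the first 15 and last 3 codons, and edgeR was run on genes that passed 1 CPM in 3 or more samples. The log2 CPM deposited by the authors is 1 average over all libraries. edgeR adds a small count to such averages, so low values are less certain. The deposited table also holds the authors' comparison of 0.1 Se with 0 Se (log2 fold change, fold change, p-value and false discovery rate), which was not used here, and the planned quasi-likelihood test of the diets needs counts per library and was not run. Library depth is unknown.

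CPM was taken as 2 to the power of the deposited log2 CPM, and density as CPM per 1000 bases of the listed length. The listed length equalled an annotated coding length minus 60 bases (20 codons) in 97.7% of 7260 genes and in all 54 members, so the codons left out are already subtracted; which 2 codons beyond the 18 named are left out is not known. The lines summed to 857014 CPM, 85.7% of 1000000. How much of the rest lies in genes without a line was not tested, since averages with an added count need not sum to 1000000. A percent of all footprints is the summed CPM over 1000000. GENCODE vM1 (NCBIM37, the same assembly as mm9) gave positions, coding sequences and, in place of a protein table, codon composition. Windows of 30 bases were compared with all protein-coding transcripts for exact matches. Head-to-head genes were within 1000 bases. Levels are descriptions without a test, since genes are not replicates. The density computation was tested on simulated data.

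Named genes are the 5 highest and 5 lowest members of each subunit by density, members of the stalk, exit tunnel, catalytic centre and decoding path, the Mrps18 paralogues, mitoribosome proteins under other symbols, and the median or extremes of lists. Genes named for shared windows, neighbours, composition or length (Mrps31, Mrpl33, Mrpl34, Mrpl36, Mrpl49, Rpl37, Gfm1 and others) were chosen after their values were seen. So were the motifs and the comparison with genes of the members' length range. The members and lists were chosen with earlier results of these data known. Python 3.11.15, pandas 2.3.3, numpy 2.4.6, scipy 1.17.1 and matplotlib 3.10.9 were used.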

Additional observations from a re-analysis of the deposited data

How the results depend on the processing

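Over 11 results, 85 values were recomputed under 9 other settings, and 75 stayed within 1.5-fold of the value reported, without a change of sign where the result was a difference. That limit is wider than the differences between subunits (1.12-fold) and by descent (1.16-fold), so it says little about them. Where it kept its sign, the difference between subunits went from 0.01 (at least 3 log2 CPM) to 0.29 (at least 400 bases). Dropping the length (CPM only) turned the difference between subunits to -0.26 and that between members and translation factors to -0.04. It also reduced the members' lead over all genes to 0.73, over tRNA synthetases to 0.94 and over assembly factors to 0.89 (log2 differences). Members are shorter by median than these gene lists. Between the subunits the median length was 471 bases for the large and 444 for the small, and why their order turned was not tested. Among genes of at least 3 log2 CPM the lead over all genes was 1.17 and over assembly factors 1.95; low genes drop out of those lists by construction. The difference between bacterial and mitochondria-specific members became -0.05 for lengths of at least 400 bases and -0.01 with means in place of medians, and the lead over translation factors 1.46 with means; the cause was not tested. Leaving out members that share windows with other genes, a setting chosen after seeing the data, moved no result by over 1.5-fold. No paired analysis was possible because no value per mouse was used and mouse numbers are not shared by the groups; likewise the planned fits with each library as a sample, with other size factors and without each mouse were not run. The precision of the members' values cannot be stated, since the depth is unknown.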
